A study of Saccharomyces cerevisiae with 24 samples.

Results

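Ethanolamine and choline are the small head groups from which yeast builds phosphatidylethanolamine (PE) and phosphatidylcholine outside the mitochondrion, and the data below set the transcript levels of yeast fed the one against those of yeast fed the other. The comparison covers 6 RNA-seq libraries of 24 in the series. Group WTE (3 libraries) was grown in YPD, a rich glucose medium, with 2 mM ethanolamine, and group WTC (3 libraries) in YPD with 2 mM choline. The genes are the 6558 that the deposited count tables list for both groups, out of 6788 in any table used here. A gene with 0 counts in both of a group's first libraries is not listed in that group's table, so counts of the compared libraries decided which low genes are included.

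Every group carried the same background, GA74-1A with deletions of psd1 and psd2, so the native genes for both PE-making phosphatidylserine decarboxylases were gone. The WTE and WTC strain, labelled wild type, had Psd1 put back as an integrated, functional construct with a 3XFLAG tag, subcloned in the pRS305 plasmid, and is called the control strain here. It is therefore a complemented strain with no Psd2, not an unaltered yeast, and the sources used here do not say how many clones were grown. Further groups are used only to place the comparison: LGE and LGC, with 2 mM ethanolamine and 2 mM choline in a mutant whose LGS motif in Psd1 was changed to AAA, and WTD, the control strain in plain YPD. All were harvested at an OD600 of 0.5 to 0.7, and each had 3 libraries. The labels do not say whether replicates came from separate cultures, so p-values measure the spread between these samples, which may be technical.

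As background, the Kennedy pathway takes up ethanolamine and choline, phosphorylates them, couples them to CTP and joins them to diacylglycerol. A second route makes phosphatidylserine from CDP-diacylglycerol, decarboxylates it to PE, and methylates PE to phosphatidylcholine. In yeast, genes of these routes that carry inositol-sensitive promoter elements are controlled by the activators Ino2 and Ino4 and by the repressor Opi1, with INO1, the inositol synthase gene, as the classical target.

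Counts over genes ran from 16189273 to 20339316 per library in the 6 libraries. The libraries did not fall apart cleanly by medium. The third library of each group lay nearer to the other group's first libraries than to those of its own. WTE replicate 3 had Pearson correlations of log2 CPM (a gene's counts relative to its library's TMM-scaled total) of 0.988 and 0.989 with WTC replicates 1 and 2, against 0.980 and 0.982 with WTE replicates 1 and 2. WTC replicate 3 had correlations of 0.989 and 0.990 with WTE replicates 1 and 2, against 0.982 and 0.983 with WTC replicates 1 and 2. These correlations run across genes, which are not independent replicates. A chi-square per gene, near 1 if only sampling noise separated a pair, was 6.45 between WTE replicates 1 and 2 and 3.78 between WTC replicates 1 and 2, against 49.1 to 372 for all other pairs of the 6 libraries. Replicates 1 and 2 of a group thus differed by more than counting noise but by far less than any other pair. Each was kept as its own sample, following the labels, and cultures grown apart cannot be told from repeat preparations of 1 culture here. The ratio of WTE to WTC had the same sign in replicates 1 and 2 and in replicate 3 for 2189 of 6162 genes (35.5%) and the opposite sign for 3973. The labels give no culture day or batch, and whether the third libraries were grown, handled or labelled differently cannot be told from the files. Every WTE over WTC value below therefore holds for the media as the libraries are labelled. Log2 ratios for replicates 1 and 2 and for replicate 3 apart are given beside many of the results.

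Among the gene lists, the heat-shock chaperones differed most between replicates 1 and 2 and replicate 3. The 26 heat-shock chaperone genes summed to 66003, 67500 and 36764 CPM in WTE, against 17988, 17938 and 61865 CPM in WTC. Their median log2 ratio was 2.28 in replicates 1 and 2 and -0.79 in replicate 3. The 19 ER chaperone and unfolded protein response genes summed to 10261, 10426 and 6443 CPM in WTE, against 4564, 4627 and 8612 CPM in WTC. The amino acid synthesis genes under Gcn4 and the ribosome biogenesis factors went the other way, with summed levels low in WTE replicates 1 and 2 and in WTC replicate 3. The part of this axis in the differences given below was not tested.

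**Figure D1:**
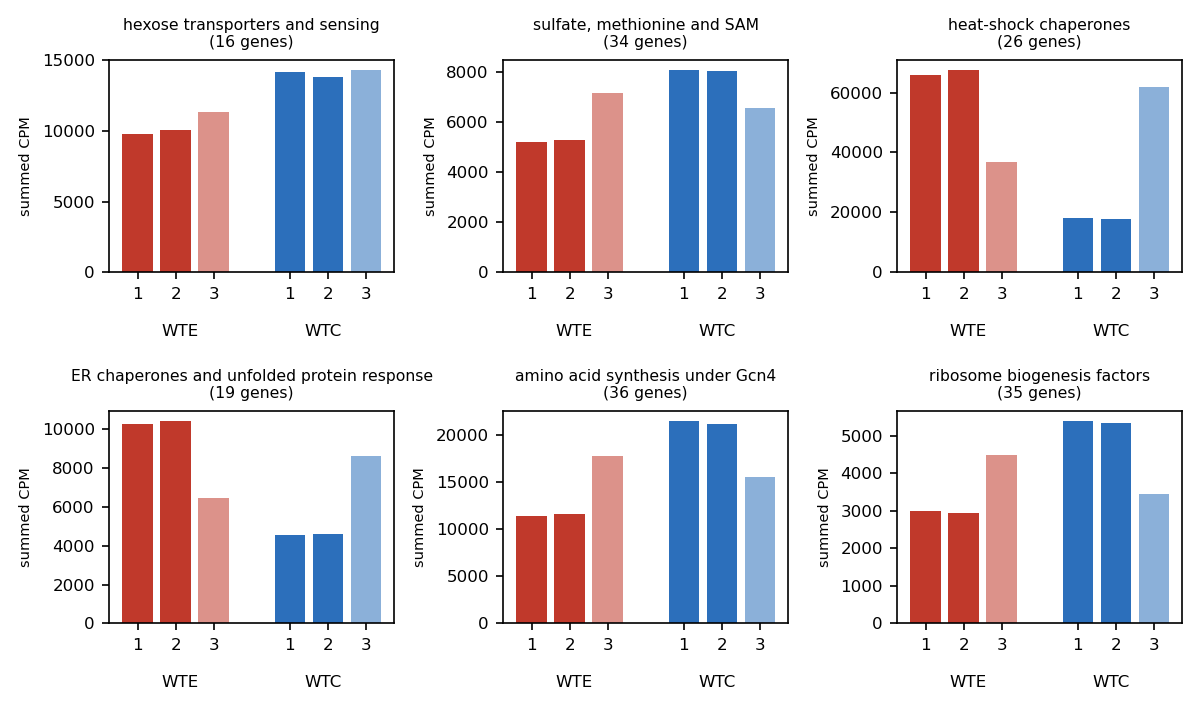
Summed levels of 6 gene lists in each library, in CPM, WTE replicates 1 to 3 on the left of each panel and WTC replicates 1 to 3 on the right, with the third library in the paler shade. The hexose list is lower in all 3 WTE libraries (9742 to 11342 CPM) than in all 3 WTC libraries (13821 to 14286 CPM), whereas for heat-shock chaperones WTC replicate 3 stands with the WTE libraries.

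Few genes separated the media beyond this spread, and nearly all of those called by edgeR's test were lower with ethanolamine. Of 6162 genes tested, 17 were called (0.276%) by edgeR's quasi-likelihood test at a Benjamini-Hochberg adjusted p under 0.05. PLB3 was the only gene called higher (0.0162%), and 16 were called lower (0.260%). That lean was not seen at an unadjusted p under 0.05 in the same test, with 506 genes higher and 485 lower. The genes that fell code for glucose uptake and its regulation, glycogen synthesis, mitochondrial pyruvate import, proline breakdown and several transcription factors. In bulk cultures, fewer cells that express a gene and less RNA per cell cannot be told apart. The median log2 fold change over all tested genes was 0.01, and 51.8% were above 0. All 17 genes had no overlap between the 3 WTE and the 3 WTC libraries, a separation that 18.0% of all tested genes also had. With no overlap, their ratios in replicates 1 and 2 and in replicate 3 must share a sign, so that agreement is no further evidence. The log2 ratios of the 16 lower genes ran from -1.84 (COX26) to -0.72 (PAL2) in replicates 1 and 2 and from -1.75 (YKR075C) to -0.52 (PAL2) in replicate 3, and PLB3 had 0.81 and 0.59.

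The number of calls depended on single libraries. It was 0 without WTE replicate 1, WTC replicate 1 or WTC replicate 2 (446, 443 and 390 genes at an unadjusted p under 0.05 in the same edgeR test, against 991 with all libraries), 1 without WTE replicate 2, 389 without WTE replicate 3 and 82 without WTC replicate 3. DESeq2's Wald test called 168 of 6297 genes with an adjusted p (2.67%), 62 higher and 106 lower (1.68%), and edgeR's test with replicates 1 and 2 summed into 1 library called 0 (177 at an unadjusted p under 0.05).

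**Figure D2:**
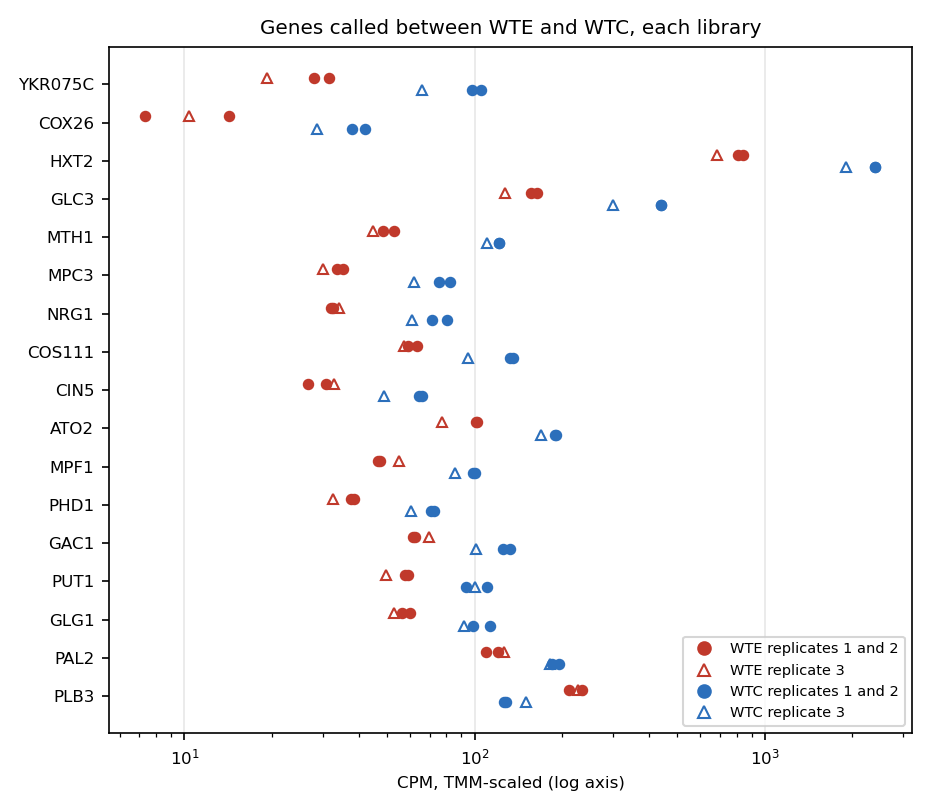
Level of each of the 17 called genes in each of the 6 libraries, in TMM-scaled CPM on a log axis, with WTE in red above WTC in blue and the third libraries as open triangles. In every row the red and blue symbols do not overlap, and PLB3, in the lowest row, is the only gene with the WTE libraries to the right.

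Glucose transport and sensing genes held the gene with the smallest p. MTH1 (YDR277C, chromosome IV, 1014401-1015702, protein-coding) codes for a co-repressor that, with Rgt1, keeps hexose transporter genes off when glucose is scarce. MTH1 had 48.5, 52.7 and 44.5 CPM in WTE, against 121, 121 and 111 CPM in WTC. The WTE libraries all lay below the WTC libraries, and replicate 3 was the lowest library of each group. The log2 fold change was -1.28 ± 0.09 (SE, adjusted p 0.00734), and the log2 ratio was -1.25 in replicates 1 and 2 and -1.30 in replicate 3. MTH1 was the only gene called by edgeR at an adjusted p under 0.01, and its adjusted p reached 0.0955 when 1 library was left out.

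HXT2 (YMR011W, chromosome XIII, 288079-289704), a high-affinity glucose transporter, had the highest level per length of the called genes, at a mean of 498 FPKM in WTE and 1326 FPKM in WTC. HXT2 had 811, 839.6 and 683 CPM in WTE, against 2407, 2394 and 1902 CPM in WTC. The third library was again the lowest of each group, and the groups did not overlap. HXT2 averaged 778 ± 83.6 CPM in WTE and 2234 ± 288 CPM in WTC (SD, n = 3 each), a log2 fold change of -1.52 ± 0.18 (adjusted p 0.0360). HXT genes are close relatives, and how reads shared between them were counted is not given in the sources used here.

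The hexose list held 16 genes of transport, sensing and glucose phosphorylation. In edgeR's test 2 of the 16 were called lower (MTH1 and HXT2) and 0 higher, with a median log2 fold change of -0.44, against 0.01 over all genes. The unadjusted p was under 0.05 for 9 members, each with a negative fold change, against 485 of 6162 genes with a negative one overall (7.87%). DESeq2's Wald test called 5 members lower and 0 higher, adding HXT4, HXT6 and HXT7, with adjusted p of 0.000798, 0.000427 and 0.00268. The list's median log2 ratio was -0.41 in replicates 1 and 2 and -0.41 in replicate 3. In edgeR's test, HXT4 had a log2 fold change of -1.17 ± 0.26 (adjusted p 0.149) and HXT6 one of -0.85 ± 0.18 (adjusted p 0.133). HXT7 had -0.62 ± 0.16 (adjusted p 0.227), and HXT6 and HXT7 are nearly identical in sequence, so their counts are uncertain. MIG1, the glucose repressor, had 52.7, 49.8 and 36.9 CPM in WTE, against 61.6, 65.3 and 72.9 CPM in WTC (log2 fold change -0.52 ± 0.14, adjusted p 0.250). The glucose sensors SNF3 and RGT2 had log2 fold changes of -0.19 and 0.13, and neither was called. HXK1, a hexokinase, followed the chaperone axis, with log2 ratios of 1.74 in replicates 1 and 2 and -0.53 in replicate 3.

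Transcription factor genes were among the other called genes. NRG1 (YDR043C, chromosome IV, 542674-543369) codes for a zinc finger repressor of glucose-repressed genes, and had 32.5, 32.1 and 34.2 CPM in WTE, against 71.3, 80.4 and 60.7 CPM in WTC. The SD was 1.1 CPM in WTE and 9.86 CPM in WTC, and the log2 fold change was -1.10 ± 0.11 (adjusted p 0.0360). PHD1, an activator of pseudohyphal growth genes, fell by 0.91 on the log2 scale (adjusted p 0.0360), with log2 ratios of -0.91 in replicates 1 and 2 and -0.88 in replicate 3. CIN5, a bZIP factor of the Yap family, averaged 30.0 ± 3.06 CPM in WTE and 59.7 ± 9.36 CPM in WTC and fell by 0.99 on the log2 scale (adjusted p 0.0487), with log2 ratios of -1.17 and -0.57 in the same order.

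Of the glycogen synthesis genes, GLC3 and GLG1 were called lower by edgeR. GLG2, PGM2, UGP1, the breakdown genes and the trehalose genes were not called by edgeR or by DESeq2. GLC3 (YEL011W, chromosome V, 133120-135234), the glycogen branching enzyme, had 164, 156 and 127 CPM in WTE, against 440.2, 440.4 and 300.1 CPM in WTC. The highest WTE library was below the lowest WTC library, and the log2 fold change was -1.40 ± 0.18 (adjusted p 0.0418). GLG1, a glycogenin that primes new glycogen chains, had 59.8, 56.4 and 52.8 CPM in WTE, against 98.8, 113 and 91.6 CPM in WTC (log2 fold change -0.84 ± 0.10, adjusted p 0.0365). GAC1, which directs the phosphatase Glc7 to glycogen synthase and is not in the glycogen list, had 61.2, 62.5 and 69.9 CPM in WTE, against 125, 132 and 101 CPM in WTC (log2 fold change -0.89 ± 0.12, adjusted p 0.0487).

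The glycogen synthases themselves lay just outside the threshold of edgeR's test and inside that of DESeq2's Wald test. GSY1 had 246, 237 and 180.1 CPM in WTE, against 462, 468 and 414 CPM in WTC, a log2 fold change of -1.02 ± 0.15 (adjusted p 0.0506). GSY2, the main synthase, had 575, 576 and 527 CPM in WTE, against 987, 988 and 872 CPM in WTC, a log2 fold change of -0.76 ± 0.13 (adjusted p 0.0845). In both the WTE libraries lay below all WTC libraries, and DESeq2's adjusted p was 3.31e-09 for GSY1 and 4.97e-11 for GSY2. Of the 16 genes for glycogen and trehalose, edgeR's test called 2 lower and 0 higher and DESeq2's Wald test called 4 lower and 0 higher. The list's median log2 fold change was 0.09, since 10 members had positive values, with a median log2 ratio of 0.32 in replicates 1 and 2 and -0.46 in replicate 3. GPH1, the glycogen phosphorylase, had log2 ratios of 1.37 in replicates 1 and 2 and -0.69 in replicate 3, and TSL1, of trehalose synthase, 0.72 and -0.38, the crossing seen in chaperones.

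Further single genes fell as well, chosen by their calls and not as members of a list. MPC3, a subunit of the mitochondrial pyruvate carrier, had 35.1, 33.7 and 29.9 CPM in WTE, against 82.1, 75.5 and 61.7 CPM in WTC (log2 fold change -1.15 ± 0.13, adjusted p 0.0360). COX26 (YDR119W-A, chromosome IV, 691014-691214), a small protein of cytochrome c oxidase, had 7.34, 14.2 and 10.4 CPM in WTE, against 41.9, 37.8 and 28.6 CPM in WTC (log2 fold change -1.77 ± 0.25, adjusted p 0.0487). The other nuclear genes of oxidative phosphorylation did not share that fall. Of 39 tested, COX26 was the 1 called lower and 0 were called higher, with a median of -0.01, and no other member had an unadjusted p under 0.05. COX26 was also the 1 member called by DESeq2's Wald test. Of 37 genes of mitochondrial protein import 0 were called by either test (1 at an unadjusted p under 0.05 in edgeR's). PUT1, the proline oxidase of mitochondria, averaged 55.2 ± 5.12 CPM in WTE and 101 ± 8.43 CPM in WTC and fell by 0.88 on the log2 scale (adjusted p 0.0360), with log2 ratios of -0.80 in replicates 1 and 2 and -1.02 in replicate 3. ATO2, a plasma membrane protein linked to ammonium export, averaged 93.2 ± 13.9 CPM in WTE and 183 ± 12.2 CPM in WTC and fell by 0.98 on the log2 scale (adjusted p 0.0418), with log2 ratios of -0.91 and -1.13 in the same order.

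The remaining falls were in genes with less defined roles. YKR075C, for which the tables give no other name, had 27.9, 31.5 and 19.3 CPM in WTE, against 98.2, 106 and 65.9 CPM in WTC, and its log2 fold change of -1.78 ± 0.23 was the lowest of the called genes (adjusted p 0.0418). COS111, MPF1 and PAL2 fell by 1.02, 0.94 and 0.65 on the log2 scale, with adjusted p of 0.0487, 0.0360 and 0.0487. Their log2 ratios were -1.12, -1.08 and -0.72 in replicates 1 and 2 and -0.74, -0.63 and -0.52 in replicate 3.

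PLB3 (YOL011W, chromosome XV, 305349-307409) codes for a phospholipase B that removes fatty acids from phospholipids at the cell surface, acting on phosphatidylinositol. PLB3 had 212, 234 and 227 CPM in WTE, against 126, 128 and 151 CPM in WTC. Replicate 3 of each group lay nearer to its own group than to the other, and the log2 fold change was 0.73 ± 0.10 (adjusted p 0.0487). The next 4 genes by p among those higher in WTE were not called by edgeR's test but were called by DESeq2's Wald test. VTS1, an RNA-binding protein, had 31.6, 32.1 and 23.6 CPM in WTE, against 14.3, 16.7 and 14.6 CPM in WTC (log2 fold change 0.93 ± 0.15, adjusted p 0.0646). SPG3, a stationary phase gene, had a log2 fold change of 0.87 ± 0.14 (adjusted p 0.0718), and REC114, of meiotic recombination, one of 0.48 ± 0.08 (adjusted p 0.0718). YLR297W had a log2 fold change of 0.50 ± 0.08 (adjusted p 0.0761). DESeq2's adjusted p was 1.98e-05 for VTS1, 6.27e-05 for SPG3, 0.000777 for REC114 and 0.00125 for YLR297W. In each of these 4 genes the groups did not overlap, as in 18.0% of all tested genes. They were taken for their small p, and DESeq2's Wald test called 2.67% of 6297 genes.

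The upstream sequences of 4 called genes are shown because they stand for the glucose, glycogen and phospholipase groups. Each is the stretch from 400 to 101 bases before the start codon, 5′ to 3′ on the gene's strand, read from the R64 genome. Capitals mark AGGGG, the stress response element bound by Msn2 and Msn4, and CGGANNA, the core of the Rgt1 site, on either strand. The intervals are chrXIII:287679-287978 (plus strand) for HXT2, chrIV:1015803-1016102 (minus strand) for MTH1, chrV:132720-133019 (plus strand) for GLC3 and chrXV:304949-305248 (plus strand) for PLB3.
HXT2: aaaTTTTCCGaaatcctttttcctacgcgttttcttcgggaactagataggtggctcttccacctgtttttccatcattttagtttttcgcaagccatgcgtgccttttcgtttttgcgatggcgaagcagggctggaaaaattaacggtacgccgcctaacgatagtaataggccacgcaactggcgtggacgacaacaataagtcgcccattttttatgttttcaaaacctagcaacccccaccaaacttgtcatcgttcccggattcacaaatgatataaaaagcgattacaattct
MTH1: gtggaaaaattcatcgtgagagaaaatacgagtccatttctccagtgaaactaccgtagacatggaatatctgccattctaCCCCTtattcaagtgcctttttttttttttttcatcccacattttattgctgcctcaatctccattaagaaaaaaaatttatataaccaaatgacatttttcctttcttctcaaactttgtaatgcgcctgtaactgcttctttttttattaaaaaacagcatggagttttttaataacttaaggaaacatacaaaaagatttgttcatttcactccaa
GLC3: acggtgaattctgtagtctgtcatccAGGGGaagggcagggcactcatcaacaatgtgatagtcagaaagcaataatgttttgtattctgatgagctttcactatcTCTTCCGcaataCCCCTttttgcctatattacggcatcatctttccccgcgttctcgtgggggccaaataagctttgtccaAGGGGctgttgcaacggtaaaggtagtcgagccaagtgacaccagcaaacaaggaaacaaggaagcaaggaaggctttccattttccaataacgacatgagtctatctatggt
PLB3: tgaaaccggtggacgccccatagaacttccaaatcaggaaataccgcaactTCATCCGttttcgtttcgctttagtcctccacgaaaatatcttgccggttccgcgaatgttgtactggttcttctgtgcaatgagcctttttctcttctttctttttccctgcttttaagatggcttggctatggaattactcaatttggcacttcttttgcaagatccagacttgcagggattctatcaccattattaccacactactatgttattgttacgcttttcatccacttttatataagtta
The windows held AGGGG 0 times in HXT2, 1 time in MTH1, 3 times in GLC3 and 0 times in PLB3, and CGGANNA 1, 0, 1 and 1 times in the same order. Of the 16 genes called lower, 9 (56.2%) had AGGGG in the window, against 1394 of 5826 upstream windows of the same length (23.9%). CGGANNA was present in 9 of the 16 (56.2%), against 1740 of the 5826 (29.9%). The motifs can share at most 1 base, and a match is a description of letters, not of binding.

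Set against plain medium, all 16 of the lower genes were lower with ethanolamine and 4 of them also with choline. WTE and WTC were each set against the same 3 WTD libraries, so the values stand side by side and are not independent. The 16 genes were also picked for low WTE and high WTC values in these same libraries. That choice favours a fall in WTE over WTD and none in WTC over WTD, so the pattern is a description only. In WTE against WTD 22.6% of 6170 genes were called (677 genes lower), and in WTC against WTD 19.1% of 6132 (555 genes lower). All 16 genes were called lower in WTE than in WTD, with log2 fold changes from -2.65 to -0.72 and adjusted p of at most 0.00860. In WTC against WTD 4 were called lower, which were COX26, GLC3, GLG1 and GAC1, and 0 were called higher. The other 12 had log2 fold changes from -0.32 to 0.46 in WTC over WTD, with adjusted p from 0.0652 to 0.936. HXT2 had log2 fold changes of -1.08 ± 0.21 in WTE over WTD (adjusted p 0.00860) and 0.46 ± 0.19 in WTC over WTD (adjusted p 0.133). MTH1 had -1.46 ± 0.09 in WTE over WTD (adjusted p 0.000113) and -0.17 ± 0.07 in WTC over WTD (adjusted p 0.134). GLC3 was lower with both supplements, by a log2 fold change of -2.35 ± 0.13 in WTE over WTD (adjusted p 0.000113) and -0.94 ± 0.16 in WTC over WTD (adjusted p 0.00838). PLB3 was higher with both, at 1.24 ± 0.12 in WTE over WTD (adjusted p 0.000573) and 0.52 ± 0.12 in WTC over WTD (adjusted p 0.0235).

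**Figure D3:**
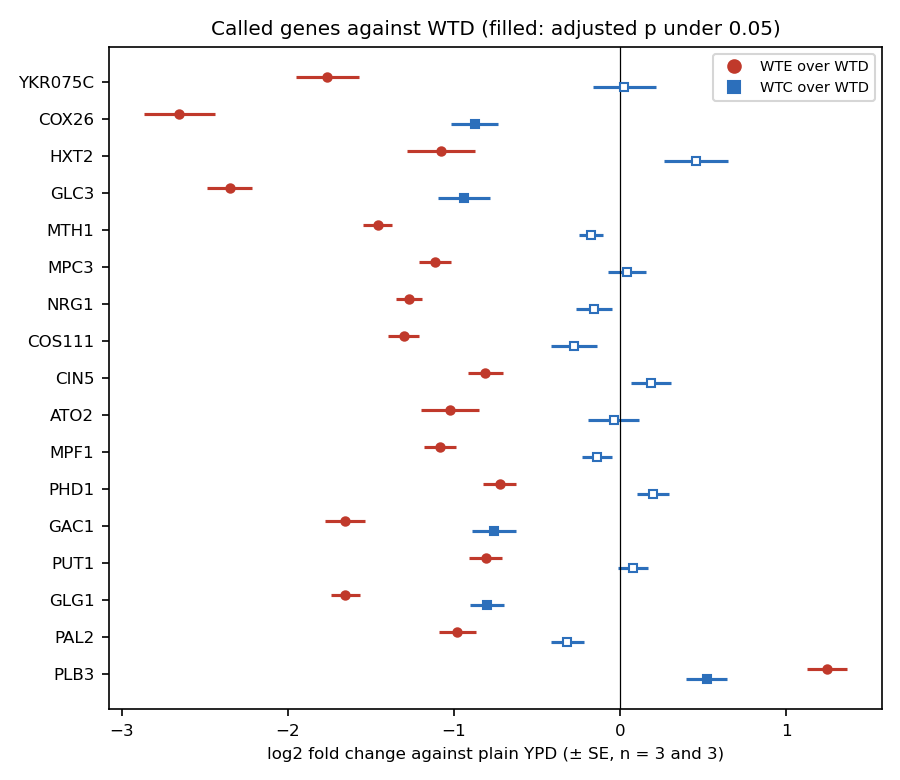
Log2 fold change of the 17 called genes over plain YPD (WTD), WTE as red circles and WTC as blue squares, with bars of ± 1 SE from fits of 3 and 3 libraries and filled symbols where the adjusted p was under 0.05. The red circles of the 16 lower genes run from -2.65 to -0.72 and are all filled, while 12 of their blue squares are open and lie between -0.32 and 0.46.

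The genes of phospholipid synthesis were not called between the media. Of the 7 Kennedy pathway genes 0 were called, with a median of 0.08, and of 10 genes of the CDP-diacylglycerol and methylation route 0 were called, with a median of -0.08, in edgeR's test (2 and 1 at an unadjusted p under 0.05). DESeq2's Wald test called 0 in either list. CPT1, the cholinephosphotransferase, came nearest, with 174, 173 and 163 CPM in WTE, against 137, 136 and 147 CPM in WTC. The groups did not overlap, and the log2 fold change was 0.28 ± 0.08 (adjusted p 0.261). ECT1, which couples phosphoethanolamine to CTP, had 124, 125 and 97.9 CPM in WTE, against 92.0, 85.3 and 96.8 CPM in WTC, with the third libraries nearly equal (log2 fold change 0.34 ± 0.12, adjusted p 0.281). HNM1, the transporter that takes up choline and ethanolamine, had a log2 fold change of -0.03 ± 0.09 (adjusted p 0.863). EKI1 and CKI1, the ethanolamine and choline kinases, had 0.08 ± 0.13 and -0.08 ± 0.18. PCT1, the matching enzyme for phosphocholine, had -0.12 ± 0.10, and EPT1, the ethanolaminephosphotransferase, had 0.09 ± 0.07. The median log2 ratio of the 7 genes was 0.23 in replicates 1 and 2 and 0.02 in replicate 3. HNM1, EKI1 and CKI1 changed sign between them, at -0.13 and 0.16, 0.23 and -0.23, and 0.25 and -0.73, while PCT1 (-0.03 and -0.29) and EPT1 (0.09 and 0.08) did not.

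On the CDP-diacylglycerol and methylation route, CHO1, the phosphatidylserine synthase, had 158, 180.2 and 185 CPM in WTE, against 220.4, 217 and 192 CPM in WTC (log2 fold change -0.26 ± 0.10, adjusted p 0.290). PSD1 (YNL169C, chromosome XIV, 316169-317671) is read here from the integrated construct, and YNL170W overlaps it on the other strand. PSD1 had 604, 615 and 572 CPM in WTE, against 605, 585 and 632 CPM in WTC, with overlapping groups (log2 fold change -0.02 ± 0.12, adjusted p 0.926). The PE methyltransferase CHO2 had 0.12 ± 0.13 and the phospholipid methyltransferase OPI3 -0.04 ± 0.10. Their log2 ratios were 0.24 and -0.16 in replicates 1 and 2 and -0.09 and 0.18 in replicate 3. PSD2 was not analysed here.

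Of the regulatory genes, INO1 differed most in size but not beyond the spread. INO1 had 41.4, 40.2 and 22.7 CPM in WTE, against 15.8, 13.8 and 24.4 CPM in WTC. Replicate 3 of each group lay between the groups' other libraries, and the groups overlapped. The log2 fold change was 0.95 ± 0.29 (adjusted p 0.261), with log2 ratios of 1.43 in replicates 1 and 2 and -0.10 in replicate 3. INO2 had log2 ratios of 0.82 and -0.98 and OPI1 ones of 0.35 and -0.44 in the same order, and neither was called.

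**Figure D4:**
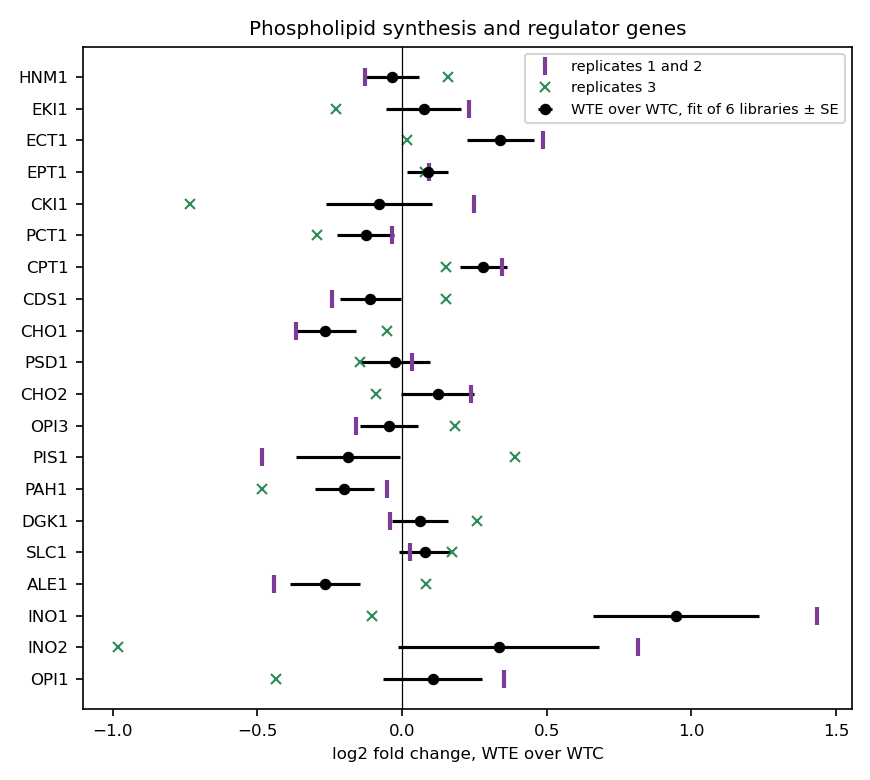
Log2 fold change of WTE over WTC for 20 phospholipid synthesis and regulator genes, black circles with ± 1 SE for the fit of 6 libraries, purple bars for replicates 1 and 2 and green crosses for replicate 3. The fitted values run from -0.27 to 0.95, none was called, and for 13 of the 20 genes, INO1, INO2, OPI1, PIS1 and CKI1 with the widest gaps, the purple and green marks fall on opposite sides of 0.

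None of the other lists held a gene called by edgeR. The 36 amino acid synthesis genes under Gcn4 all had negative fold changes (median -0.46), but the median log2 ratio was -0.80 in replicates 1 and 2 and 0.19 in replicate 3. HIS4, for example, had 209, 223 and 476 CPM in WTE, against 666, 694 and 399 CPM in WTC. Not all members crossed, and in 5 of the 36 the groups did not overlap, against 18.0% of all tested genes. LYS2, the member with the smallest p, had 224, 233 and 281 CPM in WTE, against 338, 355 and 306 CPM in WTC. Its groups did not overlap (log2 fold change -0.44 ± 0.13, adjusted p 0.261), with log2 ratios of -0.60 in replicates 1 and 2 and -0.13 in replicate 3. Of 34 genes of sulfate, methionine and S-adenosylmethionine metabolism, the donor route for PE methylation, 28 had negative values (median -0.24). The list's median log2 ratio was -0.32 in replicates 1 and 2 and -0.03 in replicate 3. In 12 of the 34 the groups did not overlap, against 18.0% of all tested genes. Among them MMP1, the S-methylmethionine permease, had 38.4, 40.4 and 48.0 CPM in WTE, against 79.0, 73.6 and 60.0 CPM in WTC (log2 fold change -0.74 ± 0.13, adjusted p 0.0845), and the groups did not overlap. The 35 ribosome biogenesis factors had a median of -0.37, with -0.75 in replicates 1 and 2 and 0.33 in replicate 3. The unadjusted p in edgeR's test was under 0.05 for 20 of the 36 amino acid genes, 13 of the 34 sulfate genes and 13 of the 35 ribosome biogenesis factors, against 991 of all 6162 genes (16.1%). DESeq2's Wald test called 0, 5 and 3 of them lower, against 106 of 6297 genes overall (1.68%). The heat-shock chaperones had the largest list median, 0.95, with 25 of 26 members positive. HSP10, with the smallest p of the list, was the 1 member whose groups did not overlap. Its levels were 693, 780 and 512.4 CPM in WTE, against 415, 376 and 511.8 CPM in WTC (log2 fold change 0.61 ± 0.20, adjusted p 0.269). HSP26, a small heat-shock protein, had 1304, 1459 and 424 CPM in WTE, against 34.5, 37.4 and 880.0 CPM in WTC, so replicate 3 ran against the other libraries (log2 fold change 1.74 ± 1.20, adjusted p 0.444). KAR2, the ER Hsp70, had 4871, 5043 and 2053 CPM in WTE, against 835, 853 and 3722 CPM in WTC (log2 fold change 1.15 ± 0.64, adjusted p 0.371).

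**Figure D5:**
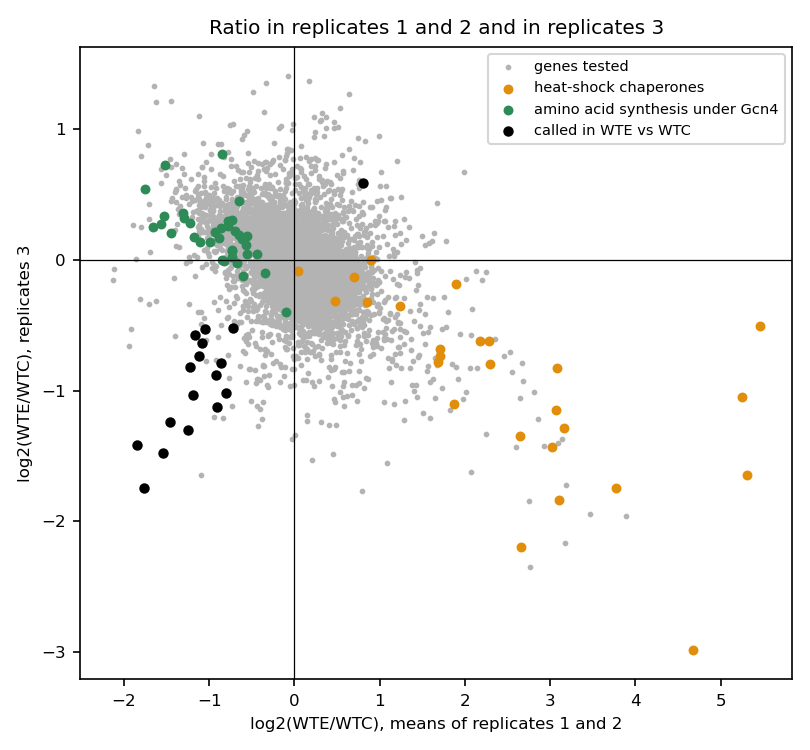
Log2 ratio of WTE to WTC for 6162 genes, from the means of replicates 1 and 2 on the horizontal axis and from replicate 3 on the vertical axis, each point a gene. Heat-shock chaperones (orange) lie mostly at lower right and amino acid synthesis genes (green) at upper left, on opposite signs in the 2 sets of libraries, while the 17 called genes (black) lie at lower left and, for PLB3, at upper right. As their groups did not overlap, the called genes could only have the same sign on both axes.

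The remaining lists had 0 to 4 members each at an unadjusted p under 0.05 in edgeR's test. Among them GCV1, SUT1, FIT1, CTR2, CTR3, STE5 and IME2 were called by DESeq2's Wald test, against 168 of 6297 genes overall (2.67%). The median log2 fold changes were -0.03 for 10 genes of inositol and choline regulation, -0.04 for 13 of serine and glycine metabolism, 0.04 for 20 hypoxic and anaerobic genes, -0.02 for 22 of the iron regulon and 0.17 for 7 copper genes. The median was -0.25 for 23 of ergosterol synthesis, -0.20 for 16 of fatty acid synthesis and desaturation, 0.31 for 15 of drug response, -0.10 for 37 of mitochondrial protein import and 0.23 for 19 of ER chaperones and the unfolded protein response. In replicates 1 and 2 and in replicate 3 the median log2 ratios had opposite signs for each of these 5 lists, at -0.42 and 0.14 for ergosterol synthesis, -0.39 and 0.22 for fatty acid synthesis, 0.54 and -0.04 for drug response, -0.14 and 0.10 for mitochondrial import and 0.48 and -0.17 for ER chaperones. The labels give no mating type. Among markers of cell identity, 7 MATa markers summed to between 2172 and 3481 CPM in WTE and between 2770.3 and 3135 CPM in WTC, and 3 MATalpha markers to between 83.3 and 89.8 CPM in WTE and between 79.2 and 98.5 CPM in WTC. The 12 sporulation markers summed to between 204 and 214 CPM in WTE and between 208 and 225 CPM in WTC. Medians were -0.21, 0.08 and 0.18 for those 3 lists, -0.09 for 15 haploid-specific and pheromone-induced genes and -0.06 for 7 auxotrophic marker genes.

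The same contrast was made in the mutant strain, and the difference between the strains was tested. The test of the difference, (WTE over WTC) minus (LGE over LGC) on the log2 scale, called 34 of 6270 genes (0.542%), 27 higher and 7 lower. In 33 of the 34 the absolute change was larger in the mutant. That count was 0 with replicates 1 and 2 summed (217 at an unadjusted p under 0.05), and 11 to 12 without any 1 of replicates 1 and 2 of WTE or WTC. It was 265 without WTE replicate 3, 140 without WTC replicate 3, 157 without LGE replicate 3 and 82 without LGC replicate 3, and 15 to 23 without replicate 1 or 2 of LGE or LGC.

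Of the 16 lower genes 1, NRG1, was called in this test. NRG1 had 66.3, 65.1 and 96.6 CPM in LGE, against 58.6, 53.0 and 56.5 CPM in LGC, the opposite order to the control strain, and the difference was -1.57 ± 0.23 (adjusted p 0.0115). For the other 15 the difference was not called, which does not show that the strains act alike. The mutant's log2 fold changes of the 16 genes ran from -0.54 to 0.65, 10 positive and 6 negative, with SEs up to 0.83. Most of these 16 genes crossed in the mutant libraries: 15 of 16 were positive in replicates 1 and 2 and 14 of 16 negative in replicate 3. The same count over all genes was not made. NRG1 did not cross, with log2 ratios of 0.23 in replicates 1 and 2 and 0.77 in replicate 3. The mutant groups of INO1 and TIR1, given below, did not overlap. HXT2 had 1020.3, 1019 and 286 CPM in LGE, against 466, 461 and 2055 CPM in LGC. GLC3 had 542, 544 and 61.0 CPM in LGE, against 115, 107 and 591 CPM in LGC, so replicate 3 stood against the other libraries in both genes. In the control strain the same 2 genes had the lower value with ethanolamine in all 3 replicate numbers, which follows from their groups not overlapping.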

How the data were processed

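RNA extracted with hot phenol was made into standard Illumina libraries, per the labels' protocols. The read counts per gene were deposited by the authors as whole numbers and used as such. The authors' FPKM values, in the same deposited tables, were used only for a level per length and entered no test. The submitters' processing notes name STAR 2.5, HTSeq 0.6.1, DESeq2 and CASAVA. Strandedness, genome build and annotation are not given in the sources used here. Of 5915 locus tags found in the R64 gene table, 5906 had the same start and end there, and 5827 of 5827 coding genes read from R64 began with ATG.

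The WTE and WTC count columns were joined by gene, which left 6558 genes. Another 118 genes were only in the WTE table (at most 32 counts) and 48 only in the WTC table (at most 10 counts), since a table leaves out genes at 0 in both of its first libraries. Counts were fitted by the quasi-likelihood F test of edgeR 4.0.16, run in R 4.3.3, with TMM normalization, filterByExpr and Benjamini-Hochberg adjustment over all genes tested. Differences between strains were tested on 12 libraries in 1 fit, and WTE and WTC against WTD each on 6. SEs of log2 fold changes came from the F statistic. Within-number ratios used CPM plus 0.5, and correlations log2 CPM with a prior count of 2.

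Named genes were the 8 largest falls and rises among called genes that averaged 50 counts or more and whose groups did not overlap. Where fewer than 5 rose, the 5 with the smallest p were taken. The named set also held the Kennedy, CDP-diacylglycerol and regulator genes and the member of each of 24 lists with the smallest p. Added to it were the 4 genes with the smallest p for the difference between strains. The other called genes were named because they were called. GSY1, GSY2, GPH1, TSL1, HIS4, HSP26, KAR2, CTR2 and the further hexose genes were examples chosen after their values were seen. Of the named set, MAK5, FIT1, ERG6, FAA4, GRE2, TIM50, ASG7, STE3, CDS1, PIS1, PAH1, SLC1 and ALE1 have no values in the text. They were not called by edgeR's test, and DESeq2's Wald test called MAK5 (adjusted p 0.0405) and FIT1 (adjusted p 0.0490). The comparison and the lists were chosen with earlier results of these data known. Lists were described by counts and medians, with no test.

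The labels number the replicates without tying a number to a day or batch. Deviations of same-numbered WTE and WTC libraries correlated at -0.37, -0.40 and -0.62, so the numbers were not taken as pairs. On simulated counts, 88.5% of 200 genes changed 2-fold were recovered among 6139 genes in WTE against WTC, with 12 unchanged genes called. In the difference between strains 16% were recovered among 6249 genes, with 1 unchanged gene called. Both shares describe the simulated counts and are not a rate of detection in the real libraries. Alternatives were other normalizations, other filters, DESeq2 1.42.0's Wald test, a replicate block, summed replicates, a joint fit of 4 media, stricter thresholds and leaving out each library. Using replicates 1 and 2 only was chosen after the data were seen.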

Additional observations from a re-analysis of the deposited data

Results flagged for a closer look

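The 7 results below stood out because the WTE over WTC change differed from the LGE over LGC change by the test of that difference in edgeR, on 12 libraries, with adjusted p over 6270 genes. NRG1, given above, had a difference of -1.57 on the log2 scale.

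INO1 had a difference of 2.56 ± 0.43 (adjusted p 0.0220). In the mutant it had 30.3, 31.2 and 47.9 CPM in LGE, against 91.4, 91.6 and 159.5 CPM in LGC, with no overlap, while in the control strain WTE and WTC overlapped. ULI1, a gene induced by the unfolded protein response, had a difference of 3.07 ± 0.50 (adjusted p 0.0185). It had 12.1, 9.53 and 9.55 CPM in LGE, against 35.9, 32.7 and 84.4 CPM in LGC. In the control strain ULI1 had 20.4, 20.6 and 10.4 CPM in WTE, against 8.62, 9.72 and 11.0 CPM in WTC.

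Both YBL100W-B and YDR034C-D are annotated as transposable elements, and reads of such repeats may be split among copies. YBL100W-B had a difference of 2.22 ± 0.21 (adjusted p 0.00158), with 22.9, 30.0 and 27.0 CPM in LGE, against 108, 110.5 and 126 CPM in LGC. YDR034C-D had a difference of 1.86 ± 0.22 (adjusted p 0.00496), with 51.7, 55.9 and 48.9 CPM in LGE, against 160.1, 151 and 197 CPM in LGC. KDX1, a protein kinase relative of the cell wall pathway, had a difference of 1.50 ± 0.18 (adjusted p 0.00565), with 37.5, 37.5 and 44.4 CPM in LGE, against 130.1, 129 and 115 CPM in LGC. TIR1, a cell wall mannoprotein, had a difference of -1.96 ± 0.22 (adjusted p 0.00496), with 77.6, 87.9 and 74.1 CPM in LGE, against 21.6, 22.6 and 24.0 CPM in LGC. For these 4 genes the WTE over WTC log2 fold change ran from -0.12 to 0.19, and the mutant groups did not overlap.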

How the results depend on the processing

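The 17 calls of WTE against WTC became 1 with upper-quartile normalization, 168 with DESeq2's Wald test, 0 with a replicate block (394 at an unadjusted p under 0.05 in edgeR), 0 with replicates 1 and 2 summed, 1 at an adjusted p under 0.01, 8 at a change of at least 2-fold, 4 with all 4 media in 1 fit (3 of them among the 17) and 3428 with replicates 1 and 2 only (1664 higher, 1764 lower, all 17 among them). Leaving out 1 library gave 0 to 389. They were 23 with DESeq2's size factors, 21 with no filter and 12 with at least 10 counts in every library. The 16 lower genes stayed below 0 in each of these settings. As their groups did not overlap, this could hardly have come out otherwise and is no further support. As the numbers did not pair the libraries, the loss of calls under the block is not read as a weaker effect.

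The 34 calls of the difference between strains became 59 with upper-quartile normalization, 268 with DESeq2's Wald test, 5 with a replicate block, 0 with replicates 1 and 2 summed, and 11 to 265 without 1 library.

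Signs reversed only for genes near 0 that were not called with all 6 libraries. With replicates 1 and 2 summed, the log2 fold change was 0.0096 for HNM1, -0.0073 for EKI1, 0.0108 for OPI3 and -0.0226 for OPI1. With upper-quartile normalization it was 0.0028 for PSD1. With replicates 1 and 2 only it was 0.24 for CKI1 (adjusted p 0.00870), 0.0223 for PSD1 and -0.0509 for DGK1. Without 1 library it ran from -0.0103 to 0.1669 for EKI1, -0.0202 to 0.264 for OPI1, -0.1838 to 0.0907 for CKI1, -0.051 to 0.0048 for PSD1, -0.0018 to 0.1285 for DGK1, -0.1071 to 0.0058 for OPI3, -0.0911 to 0.0037 for HNM1 and -0.256 to 0.0064 for TIR1. Over 62 named genes and 1054 recomputed values, 805 kept direction and side of the threshold, 161 lost the call, 71 gained it and 17 reversed. The causes were not tested. At 16189273 or more counts a library, depth limits only genes of few counts. COX26, at 7.34 CPM in WTE replicate 1, still averaged 418 counts over the 6 libraries.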

Other observations

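Some list members with the smallest p in their list kept the groups apart without being called by edgeR's test. Of all tested genes 18.0% kept the groups apart, and a choice by p favours such genes. SUT1, a sterol uptake regulator, had 14.8, 14.8 and 15.3 CPM in WTE, against 30.2, 31.7 and 23.6 CPM in WTC (log2 fold change -0.93 ± 0.14, adjusted p 0.0516). STE5, the scaffold of the pheromone kinase cascade, had 110.5, 99.9 and 91.5 CPM in WTE, against 69.7, 67.6 and 72.6 CPM in WTC (log2 fold change 0.52 ± 0.09, adjusted p 0.0845). GCV1, of the glycine decarboxylase complex, had 31.5, 32.0 and 28.9 CPM in WTE, against 18.9, 21.7 and 22.1 CPM in WTC (log2 fold change 0.56 ± 0.11, adjusted p 0.101). IME2, a kinase of meiosis, had 30.5, 33.4 and 32.5 CPM in WTE, against 43.0, 42.6 and 45.2 CPM in WTC (log2 fold change -0.44 ± 0.08, adjusted p 0.101). All 4 were called by DESeq2's Wald test, which called 168 of 6297 genes overall (2.67%).

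CTR3, a copper transporter, had 9.09, 10.4 and 14.8 CPM in WTE, against 22.1, 25.0 and 18.9 CPM in WTC (adjusted p 0.144 in edgeR's test and 0.00330 in DESeq2's Wald test). It was higher than in WTD with both supplements, at log2 fold changes of 1.19 ± 0.28 in WTE over WTD (adjusted p 0.0186) and 2.14 ± 0.22 in WTC over WTD (adjusted p 0.00186).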
